A study of Homo sapiens with 9 samples.

Results

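A skipped exon, or cassette exon, is an exon that is kept in some transcripts of a gene and left out of others, between the same upstream and downstream exons. The events described here are the skipped exon events that the study listed as altered in K562 cells after knockdown of DHX34 or of UPF1. There are 436 of them among 1456 listed splicing events of all types, with 119 in the DHX34 list and 371 in the UPF1 list. They lie in 364 genes and cover 433 distinct exons, and 62 genes hold more than 1 event, up to 4 in NQO2. The lists were made on these same libraries with SUPPA2, at a significance limit of 0.05. The study's text and methods give this limit as an adjusted p-value or q, and its figure legends as P. A difference in percent spliced in (PSI) of at least 5 percentage points was also required. So was an isoform level of at least 0.5 TPM (the level of a transcript as a share of all transcripts, corrected for its length). The sizes and directions of change against the control are therefore a description of how the events were chosen, with no test.

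K562 (also spelled K652 in the labels) is a human erythroleukaemia cell line. Cells were transfected with nontargeting siRNA (SCR, whose treatment is labelled WT), with a pool of siRNAs against DHX34 (DHX34-kd) or with a pair of siRNAs against UPF1 (UPF1-kd), transfected again, and harvested on day 4. Each group held 3 libraries of poly(A) RNA, described as biological replicates in the study's methods, so what was measured is the bulk RNA of a transiently depleted culture. The 9 libraries held between 73478797 and 103625443 expected counts. The erythroid markers were expressed in every library, with GATA1 between 184 and 225 TPM, while MS4A1, a B cell marker, and KRT5, an epithelial marker, were at 0. Of the other markers of foreign cell types, EPCAM (68.1 to 80.4 TPM), KRT19 (65.6 to 122.2 TPM) and LYZ (11.9 to 32.8 TPM) were present in all libraries and the rest stayed at or below 3.68 TPM.

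Nonsense-mediated decay (NMD) degrades transcripts in which translation stops at a premature termination codon (PTC), typically one that lies well upstream of the last exon-exon junction. UPF1 is the RNA helicase at the core of the pathway, and DHX34 is a DEAH-box helicase that promotes it. Alternative splicing and NMD meet in cassette exons. A "poison" exon brings a stop codon into the reading frame when it is included, and the loss of an exon whose length is not a multiple of 3 shifts the frame and can create a PTC downstream. Many genes for SR proteins, the serine- and arginine-rich splicing regulators, keep such exons as a means of autoregulation. In a library of steady-state RNA, PSI therefore reads both how often an exon is spliced in and how long the resulting transcript lasts.

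The knockdowns were read from the level of the targets. DHX34 was at 18.4, 19.4 and 18.2 TPM in SCR, at 9.49, 9.4 and 11.1 TPM in the DHX34 knockdown, and at 23.0, 22.3 and 21.9 TPM in the UPF1 knockdown. UPF1 was at 46.4, 51.4 and 49.9 TPM in SCR, at 52.7, 54.0 and 54.9 TPM in the DHX34 knockdown, and at 23.3, 23.0 and 22.9 TPM in the UPF1 knockdown. Each target was thus lowest in its own knockdown, with no overlap with the other groups, and about as much of it remained as was lost. DHX34 RNA was also higher in all UPF1 knockdown libraries than in any SCR library.

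PSI was rebuilt for every library as the TPM of the transcripts with the exon, in percent of the TPM of the transcripts with and without it. Both kinds of transcript must use the same flanking splice sites, so a transcript that joins the exon to other sites is in neither form. Of the 436 events, 426 were found in the annotation used here and 10 were not. Another 10 had a mean summed level of both forms under 1 TPM or no PSI in some library. The remaining 416 events are described below, 112 of the DHX34 list, 354 of the UPF1 list and 50 in both. They are compared with 21638 annotated skipped exon events in 7454 genes that passed the same limit. The transcripts of both forms of a member had a median of 3344 expected counts in the library where they had fewest, and 9 members had under 20. These counts are of whole transcripts, most of which is shared sequence, so the evidence on the exon itself is a fraction of that.

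The exons whose inclusion brings in a stop codon are the clearest case of splicing coupled to NMD, and their sequences are shown here for members of each list. Each is the whole exon on the strand of the gene, read from the reference genome GRCh38, and the capitals mark the first stop codon in the frame of the most abundant coding transcript across the junction. The first is the exon of DHX34 itself (chr19:47376915-47376989, plus strand), with TGA at base 51 of 75.

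DHX34: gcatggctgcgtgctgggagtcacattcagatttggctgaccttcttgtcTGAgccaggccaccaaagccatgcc

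The next exons belong to the UPF1 list. TRA2B (chr3:185931577-185931852, minus strand) encodes an SR-like splicing activator, RBM39 (chr20:35740525-35740597, minus strand) a splicing factor related to U2AF, and SAT1 (chrX:23784294-23784403, plus strand) the acetyltransferase that starts polyamine breakdown. THUMPD2 (chr2:39757248-39757368, minus strand), DNAJC25 (chr9:111642857-111643094, plus strand), QDPR (chr4:17490662-17490745, minus strand), which encodes dihydropteridine reductase, and PLEKHA3 (chr2:178488968-178489014, plus strand) follow.

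TRA2B: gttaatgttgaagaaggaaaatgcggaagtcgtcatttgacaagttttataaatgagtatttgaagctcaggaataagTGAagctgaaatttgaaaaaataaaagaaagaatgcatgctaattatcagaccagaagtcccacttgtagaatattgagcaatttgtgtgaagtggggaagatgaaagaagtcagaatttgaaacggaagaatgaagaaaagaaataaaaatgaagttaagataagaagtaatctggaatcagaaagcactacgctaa
RBM39: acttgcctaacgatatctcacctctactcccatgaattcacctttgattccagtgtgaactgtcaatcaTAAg
SAT1: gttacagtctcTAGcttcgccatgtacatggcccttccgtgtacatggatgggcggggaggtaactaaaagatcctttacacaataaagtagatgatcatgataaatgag
THUMPD2: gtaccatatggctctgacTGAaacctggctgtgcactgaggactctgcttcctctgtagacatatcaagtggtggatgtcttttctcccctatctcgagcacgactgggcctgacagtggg
DNAJC25: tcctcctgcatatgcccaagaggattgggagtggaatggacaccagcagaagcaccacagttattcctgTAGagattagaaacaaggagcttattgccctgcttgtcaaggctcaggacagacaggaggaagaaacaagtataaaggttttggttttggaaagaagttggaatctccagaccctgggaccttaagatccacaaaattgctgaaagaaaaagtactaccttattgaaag
QDPR: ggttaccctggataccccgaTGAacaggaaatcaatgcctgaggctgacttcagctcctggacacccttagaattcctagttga
PLEKHA3: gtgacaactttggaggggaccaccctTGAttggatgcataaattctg

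Members of both lists come last. SF3B1 (chr2:197418896-197418951, minus strand) and U2AF1 (chr21:43100453-43100519, minus strand) encode factors that recognise the branch point and the 3′ splice site. THG1L (chr5:157738622-157738734, plus strand) encodes the enzyme that adds a guanosine to histidine tRNA.

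SF3B1: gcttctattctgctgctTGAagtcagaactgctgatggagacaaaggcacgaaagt
U2AF1: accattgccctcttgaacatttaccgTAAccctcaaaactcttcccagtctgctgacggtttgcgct
THG1L: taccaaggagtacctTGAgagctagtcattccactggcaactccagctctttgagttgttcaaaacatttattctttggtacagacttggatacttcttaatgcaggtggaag

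The stop lies near the start of the exon in SAT1 (base 12) and THG1L (base 16) and at the very end in RBM39 (base 70 of 73). The QDPR exon is 84 bases and the DHX34 exon 75 bases, both multiples of 3, so inclusion keeps the length of the frame and still ends it. Not all are annotated NMD exons of the same clarity. QDPR has transcripts annotated as coding with and without the exon, and its stop lies 61 bases before the last exon-exon junction. In PLEKHA3 and U2AF1 the biotypes with most TPM are not an NMD form with the exon beside a coding form without it.

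The exon of DHX34 was included more in the DHX34 knockdown than in any other library. Its PSI was 16.8, 17.0 and 12.1% in SCR, 32.2, 34.4 and 27.4% in the DHX34 knockdown, and 19.3, 18.4 and 20.4% in the UPF1 knockdown. The 3 groups did not overlap in the order SCR, UPF1 knockdown, DHX34 knockdown. The levels of both forms show what moved. Transcripts with the exon were at 2.79 ± 0.55 TPM in SCR and 2.94 ± 0.16 TPM in the DHX34 knockdown (SD, n = 3), while those without it were at 15.4 ± 0.52 and 6.5 ± 0.82 TPM. The higher PSI after DHX34 knockdown was thus a loss of the form without the exon, by 1.19 on the log2 scale of TPM + 0.5, beside a difference of 0.08 for the form with it. In the UPF1 knockdown the form with the exon was at 4.19 ± 0.23 TPM and the form without it at 17.5 ± 0.44 TPM, so both were higher than in SCR. The siRNA acts on the same transcripts that are measured here, and its part in the difference between both forms was not tested.

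In the DHX34 list as a whole, 92 of 112 members had the 3 knockdown libraries on one side of the 3 SCR libraries, 53 with a higher and 39 with a lower PSI. Over all 21638 events the groups did not overlap in 12.2%, with 6.76% higher and 5.48% lower. Because this contrast chose the members, nothing is read from the difference between these shares. The absolute difference in PSI had a median of 12.6 percentage points, with quartiles of 8.1 and 20.4, and ran up to 64.8 points higher and 77.4 points lower. In the UPF1 knockdown, 63 of the same 112 members lay apart from SCR, 30 higher and 33 lower, with a median absolute difference of 7.9 points. Of the 112, 50 are also in the UPF1 list, so this contrast chose them too, and 39 of these lay apart. The 62 in the DHX34 list alone had 24 apart, or 38.7%, with a median of 4.6 points. Over all events the share was 20.1%. The SCR libraries are the same in both contrasts, so nothing is read from these shares.

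In the UPF1 list, 317 of 354 members had UPF1 knockdown libraries apart from SCR, 162 higher and 155 lower. The share over all events was 20.1%, with 10.8% higher and 9.34% lower. The median absolute difference was 11.7 points, with quartiles of 8.0 and 17.1. In the DHX34 knockdown 94 of the 354 lay apart from SCR, 49 higher and 45 lower, and the median absolute difference was 2.2 points. The 304 members in the UPF1 list alone had 55 apart, or 18.1%, with a median of 1.9 points. Over all events the share was 12.2%. Both knockdowns were compared with the same SCR libraries, so these values stand side by side and are not independent of each other.

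Events in both lists numbered 54, which is 45.4% of the DHX34 list and 14.6% of the UPF1 list. Of the 50 with a PSI, 26 were higher in both knockdowns, 23 were lower in both and 1 moved in opposite directions. The exception was an exon of 67 bases in TMEM141 (chr9:136791711-136791777, plus strand), with a PSI of 57.0, 54.9 and 56.5% in SCR, 63.6, 63.5 and 63.5% in the DHX34 knockdown and 47.0, 46.4 and 51.3% in the UPF1 knockdown. No library of one group overlapped another group for this exon. Both contrasts chose the events of both lists, against the same SCR libraries. Nothing is therefore read from the shared directions or from the overlap of the lists.

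The limit of 5 points falls inside the lists. The rebuilt difference of CRTAP, 5.06 points, was the smallest at or above it in the DHX34 list, and that of PPP1R35, 5.09 points, in the UPF1 list. Just outside were IARS1, at -1.2 points, the one member of the DHX34 list under the limit, and YARS1, at 3.89 points, the largest of 6 such members of the UPF1 list. Conversely, 1076 events outside the DHX34 list and 1628 outside the UPF1 list differed by at least 5 points with groups that did not overlap.

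The knockdowns were also compared directly, a contrast that did not choose the members although its libraries did. The UPF1 and DHX34 knockdown libraries did not overlap in 254 of the 354 members of the UPF1 list, in 36 of the 112 of the DHX34 list and in 8 of the 50 in both, against 18.5% of all events. The median absolute difference between knockdowns was 9.0 points in the UPF1 list, 4.8 in the DHX34 list and 2.5 in the events of both lists. Shifts from SCR in these same libraries chose the lists, so nothing is read from these shares and medians.

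Limma on the log2 ratio of both forms, over 21748 events with Benjamini-Hochberg adjustment at 0.05, called 0.225% of events in the DHX34 knockdown against SCR, 5.52% in the UPF1 knockdown against SCR and 4.46% between the knockdowns. These are 49, 1201 and 971 events. Among the calls were 11 of the 112 members of the DHX34 list in the first contrast and 193 of the 354 of the UPF1 list in the second. Between the knockdowns, 147 members of the UPF1 list and 8 of the DHX34 list were called. The counts depended on the pseudocount, with 7, 500 and 403 events at 0.1 TPM and 852, 3339 and 2028 at 2 TPM. They also depended on single libraries. Without SCR replicate 1, 2 or 3 the first contrast called 3, 5 and 6 events, without DHX34 knockdown replicate 1, 2 or 3 it called 0, 7 and 0, and without UPF1 knockdown replicate 1, 2 or 3 it called 15, 14 and 14. The 2 fits that called 0 had 2855 and 2634 events at an unadjusted p under 0.05. In the second contrast each SCR or UPF1 knockdown library left out gave between 492 and 739 calls, of which 102 to 139 were members of the UPF1 list. In the third, each knockdown library left out gave between 455 and 614 calls.

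What a splice choice does to the transcript was read from the annotation. Events were grouped by whether the form with the exon is annotated as an NMD substrate and the form without it as protein coding ("NMD form by inclusion"), the reverse ("NMD form by skipping"), protein coding both ways, or otherwise. In the UPF1 list 80 members made the NMD form by inclusion, 71 by skipping, 109 were coding both ways and 94 fell in the last group. In the DHX34 list these numbers were 9, 15, 59 and 29. As shares, the NMD form arose by inclusion in 22.6% of the UPF1 list, 8.0% of the DHX34 list and 15.4% of all events. It arose by skipping in 20.1%, 13.4% and 9.8%, and both forms were coding in 30.8%, 52.7% and 52.2%.

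The UPF1 list split by this outcome. Among the 80 members with the NMD form by inclusion, PSI was higher in the UPF1 knockdown in 76, with a median difference of 12.5 points, and 72 lay above SCR without overlap against 4 below. Among the 71 with the NMD form by skipping, PSI was lower in 62, with a median difference of -10.2 points, and 59 lay below SCR without overlap against 4 above. Either way it was the NMD form that had gained share. Members coding both ways were divided, with 47 above and 52 below SCR. The same order was present over all tested events, most of which are in no list. Of the 3327 with the NMD form by inclusion, 25.1% lay above SCR and 2.2% below, and of the 2111 with the NMD form by skipping, 2.2% lay above and 25.4% below.

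Library by library, the median PSI of the 80 members with the NMD form by inclusion was 15, 16.2 and 15.4% in SCR, 17.9, 16.0 and 17.4% in the DHX34 knockdown and 27.9, 28.7 and 29.8% in the UPF1 knockdown. For the 71 with the NMD form by skipping it was 89.6, 86.9 and 86.9% in SCR, 90.4, 91.5 and 88.2% in the DHX34 knockdown and 77.6, 76.0 and 75.3% in the UPF1 knockdown. In both groups the 3 UPF1 knockdown libraries stood apart from the other 6, and the DHX34 knockdown libraries were within 2 points of the SCR range.

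**Figure D1:**
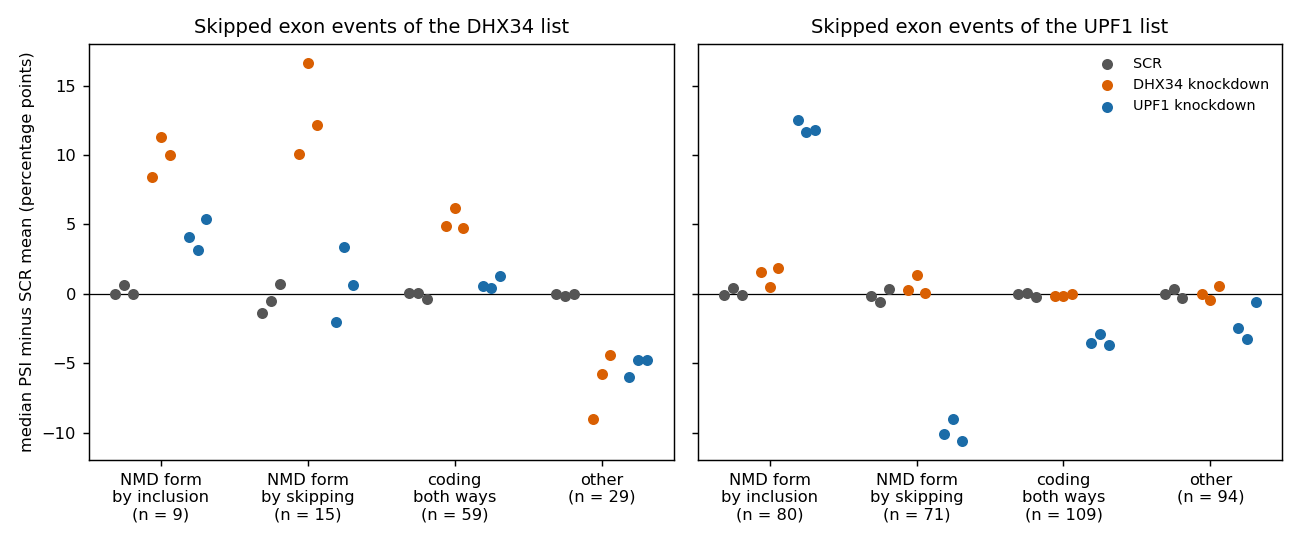
Median over members of the PSI of a library minus the mean PSI in SCR, in percentage points, for each annotated outcome (x axis, with the number of members). Each point is 1 library. In the UPF1 list the 3 UPF1 knockdown libraries lie at 11.69 to 12.51 for the NMD form by inclusion and at -10.61 to -9.03 for the NMD form by skipping. In the DHX34 list the 3 DHX34 knockdown libraries lie above 0 for both outcomes.

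The DHX34 list did not split this way in the DHX34 knockdown. PSI was higher in 7 of the 9 members with the NMD form by inclusion, with a median difference of 10.1 points (quartiles 5.62 and 16.0). It was also higher in 11 of the 15 with the NMD form by skipping, with a median of 16.4 points (quartiles 2.51 and 20.4). In those 11 the coding form, not the NMD form, had gained share. In the UPF1 knockdown the same 15 members had a median difference of 2.73 points, with 3 above SCR, 4 below and the rest overlapping. Over all 2111 tested events of this outcome, 5.8% lay above and 5.5% below SCR in the DHX34 knockdown. These are small groups, and leaving out SCR replicate 1 alone took the median of the 9 from 10.1 to 8.4 points. By the placing of stop codons described below, 27 members of the DHX34 list had a PTC by skipping alone. Their directions were divided, with 10 above SCR without overlap and 12 below.

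**Figure D2:**
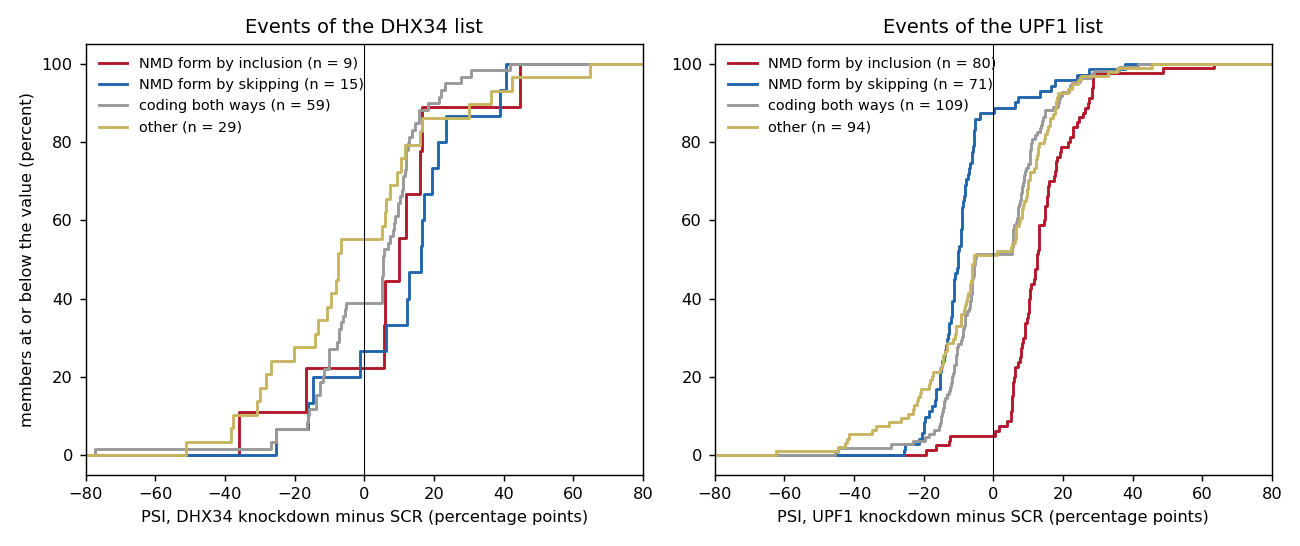
Cumulative share of members (y axis, percent) at or below a given difference in PSI between the knockdown that defined the list and SCR (x axis, percentage points), 1 line per annotated outcome. In the UPF1 list the lines for the NMD form by inclusion (median 12.54) and by skipping (median -10.16) lie on opposite sides of 0, while in the DHX34 list both lie mostly to the right of it. The flat stretch around 0 is the selection on size.

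The level of each form shows which transcripts differed. Among the 80 members with the NMD form by inclusion, the median difference of the form with the exon in the UPF1 knockdown was 1.36, as log2 of TPM + 0.5. The form without it was higher by 0.18 and the whole gene by 0.37. For the 71 with the NMD form by skipping, the form without the exon was higher by 1.23 and the form with it by 0.14. The NMD form was higher than in SCR in 77 of 80 and in 63 of 71 members, and it differed more than the coding form did in 77 and in 66. The coding form was lower than in SCR in 23 and in 20. The typical member therefore had more of the NMD form beside a coding form that was little different.

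In the DHX34 list the 15 members with the NMD form by skipping had the NMD form lower by a median of 0.93 in the DHX34 knockdown, and the coding form was higher by 0.29. The NMD form was higher in 4 of the 15. For the 9 with the NMD form by inclusion, that form was higher by a median of 0.98 and the coding form by 0.02.

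Biotypes in an annotation are assigned by rule, so the stop codons were also placed by inserting the exon into, or removing it from, the most abundant coding transcript. A PTC was called where the first stop in frame lay more than 50 bases before the last exon-exon junction. In the UPF1 list inclusion alone gave a PTC in 102 members, with a median difference of 12.1 points in the UPF1 knockdown and 94 higher. Skipping alone gave one in 113, with a median of -10.1 points and 102 lower. A further 57 had no PTC either way, 4 had one both ways, and 78 could not be read. In the DHX34 list the numbers were 14 by inclusion, 27 by skipping, 45 with none and 26 not read. As shares, a PTC came by inclusion alone in 28.8% of the UPF1 list, 12.5% of the DHX34 list and 23.7% of all tested events. By skipping alone it came in 31.9%, 24.1% and 16.4%. Over all tested events, 3516 of 5123 with a PTC by inclusion were higher in the UPF1 knockdown. With a PTC by skipping, 2425 of 3546 were lower. The contrasts with SCR chose the members, so their directions are a description. In the DHX34 knockdown the median was 11.1 points for a PTC by inclusion, with 10 of 14 higher, and 5.23 points for a PTC by skipping, with 14 of 27 higher. For the 27 the quartiles were -14.01 and 14.65, with 10 above SCR without overlap and 12 below.

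The share of exons that keep the reading frame also differed between the lists, as a description with no test. Exons were a multiple of 3 bases in 26.3% of the UPF1 list, against 41.1% of the DHX34 list and 41.2% of all tested events. In other respects the exons resembled those of the annotation at large. Median length was 112 bases in the members and 111 in all events, with 11 members under 28 bases and 15 over 300. The longest was the 5916-base coding exon of SON. Splice sites were AG and GT in 98.3% of members and 97.4% of events, and median GC content was 48.8% and 49.3%. The lists held more exons of intermediate inclusion. PSI in SCR was under 10% in 14.4% of members and 35.0% of events, and over 90% in 14.7% and 30.7%. The members were also more abundant, with a median summed level of 31.3 TPM against 12.1 TPM. Limits on the PSI difference and on the level chose the members, so nothing is read from the differences in inclusion and abundance.

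**Figure D3:**
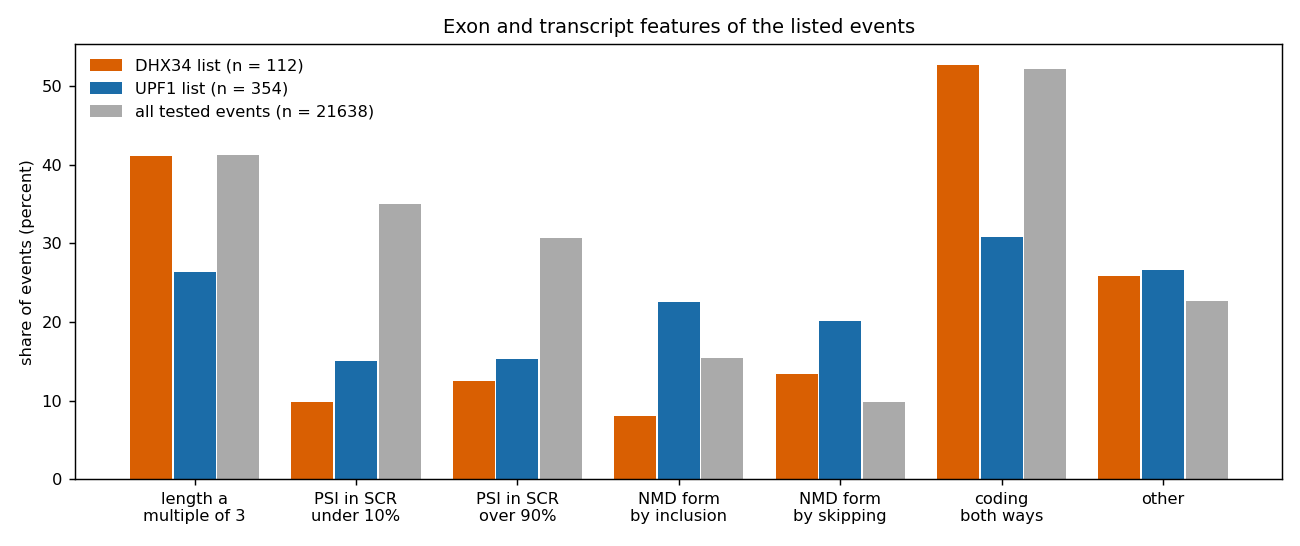
Share of events (y axis, percent) with each feature in the DHX34 list, the UPF1 list and all tested events. Exons of a length divisible by 3 make up 26.3% of the UPF1 list and 41.1% of the DHX34 list, and events coding both ways 30.8% and 52.7%.

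Several exons of the UPF1 list with an in-frame stop were more included in the UPF1 knockdown. The TRA2B exon had a PSI of 27.5, 27.8 and 25% in SCR, 26.2, 24.5 and 28.1% in the DHX34 knockdown and 53.1, 54.6 and 52.0% in the UPF1 knockdown. Its form with the exon was at 39.1 ± 3.76 TPM in SCR and 123.8 ± 5.48 TPM in the UPF1 knockdown (SD, n = 3), and the form without it at 106.7 ± 3.5 and 108.8 ± 2.11 TPM. The poison form was thus about as abundant as the coding form after UPF1 knockdown, and the coding form stayed within its spread. The RBM39 exon had a PSI of 19.6, 21.7 and 20.6% in SCR, 21.0, 19.2 and 21.6% in the DHX34 knockdown and 40.1, 39.9 and 40.2% in the UPF1 knockdown. The SAT1 exon was at 11.8, 7.3 and 6.6% in SCR, 18.0, 11.8 and 11.7% in the DHX34 knockdown and 36.0, 31.2 and 32.3% in the UPF1 knockdown. For RBM39 the DHX34 knockdown overlapped SCR, and for SAT1 its lowest library, at 11.7%, lay just under the highest SCR library, at 11.8%.

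The THUMPD2 exon was at 24.7, 22.5 and 19.1% in SCR, 29.6, 30.9 and 28% in the DHX34 knockdown and 42.1, 52.8 and 55.8% in the UPF1 knockdown, so both knockdowns lay above SCR. DNAJC25 was at 33.7, 42.2 and 33.6% in SCR and 60.7, 64.6 and 66.8% in the UPF1 knockdown, with the DHX34 knockdown at 34.7 to 47.2%. QDPR was at 22.3, 27.3 and 25% in SCR and 62.1, 57.1 and 41.8% in the UPF1 knockdown, with the DHX34 knockdown at 25.8 to 27.4%. PLEKHA3 was at 30.4, 22.8 and 30.3% in SCR and 65.2, 45.2 and 50.1% in the UPF1 knockdown. Its DHX34 knockdown libraries, at 33.2 to 37%, also lay above every SCR library. The PLEKHA3 form with the exon was at 1.95 TPM in SCR and 2.95 TPM in the UPF1 knockdown. The form without it was at 4.98 and 2.72 TPM. As log2 of TPM + 0.5, the form without the exon differed more, by -0.83 against 0.52 for the form with it. In these genes every UPF1 knockdown library was above every SCR and DHX34 knockdown library, and the spread within that knockdown was widest in QDPR and PLEKHA3.

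Other exons with an in-frame stop are in both lists. SF3B1 was at 18.7, 20.2 and 15.3% in SCR, 26.5, 29.8 and 34.1% in the DHX34 knockdown and 21.8, 24.9 and 31.6% in the UPF1 knockdown, so both knockdowns were above SCR and overlapped each other. Its form with the exon was at 8.83 TPM in SCR, 20.1 TPM in the DHX34 knockdown and 15.7 TPM in the UPF1 knockdown. The U2AF1 exon is counted in a pair of events with different transcripts without it. In the event with fewer of these it was at 2.4, 2.9 and 1.6% in SCR, 7.0, 12.4 and 5.8% in the DHX34 knockdown and 4.7, 10.0 and 8.4% in the UPF1 knockdown, on a form with the exon of only 0.49, 1.53 and 1.3 TPM. U2AF1 has a near-identical copy on chromosome 21, so the assignment of its reads is uncertain.

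The THG1L exon was lower in both knockdowns, with 22.5, 20.2 and 26.3% in SCR, 0, 0 and 18.9% in the DHX34 knockdown and 0, 15.4 and 15.5% in the UPF1 knockdown. In THG1L a stop codon in the exon thus did not go with a higher PSI, on values that include libraries at exactly 0%. An exon of 173 bases in BIRC6, an inhibitor of apoptosis, was also lower. It was at 58.7, 58.3 and 60.1% in SCR, 37.4, 25.4 and 22.4% in the DHX34 knockdown and 42.7, 34.3 and 26.5% in the UPF1 knockdown. No transcript with the BIRC6 exon is annotated as coding or as an NMD substrate. Its stop was read only in the frame of a coding transcript without the exon.

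The member with the largest difference among those at 5 TPM or more was an exon of 277 bases in NPIPB12, at 0% in the 3 SCR libraries, 50.7, 32.7 and 51.0% in the DHX34 knockdown and 57.5, 64.5 and 67.9% in the UPF1 knockdown. NPIPB12 belongs to a family of near-identical copies on chromosome 16, among which reads can be exchanged, so this value is uncertain.

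**Figure D4:**
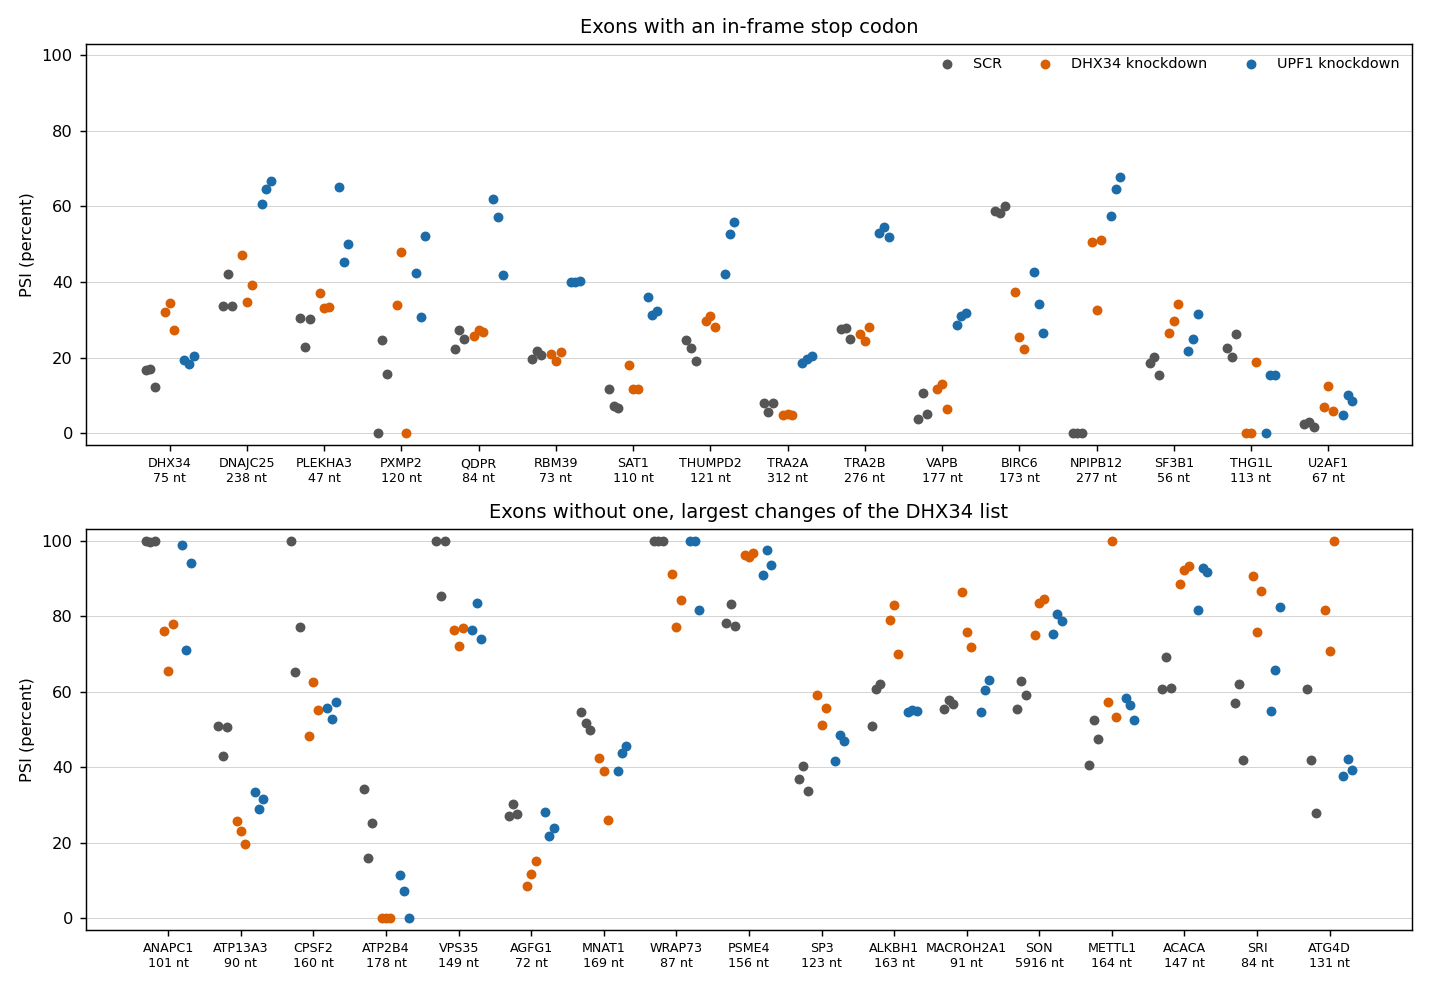
PSI (y axis, percent) of single exons in the 9 libraries, each point 1 library, with the gene and exon length in bases on the x axis. The upper panel holds the exons with an in-frame stop codon, ordered by list, and the lower panel the other exons named for the largest changes of the DHX34 list. The panels hold the exons named by rule, so not every member. TRA2B and RBM39 are highest in the UPF1 knockdown, at 52.0 to 54.6% and 39.9 to 40.2%, while DHX34 is highest in its own knockdown, at 27.4 to 34.4%.

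Among exons for which no PTC was read, several of the DHX34 list differed in both knockdowns. An exon of 147 bases in ACACA (chr17:37179260-37179406, minus strand), the carboxylase that commits acetyl-CoA to fatty acid synthesis, was at 60.7, 69.1 and 61.0% in SCR, 88.5, 92.3 and 93.3% in the DHX34 knockdown and 81.5, 92.8 and 91.6% in the UPF1 knockdown. The long exon of SON (chr21:33549476-33555391, plus strand), which encodes a large splicing cofactor of nuclear speckles, was at 55.4, 62.7 and 59.1% in SCR, 75, 83.5 and 84.6% in the DHX34 knockdown and 75.2, 80.6 and 78.7% in the UPF1 knockdown. In ATP13A3 (chr3:194412199-194412288, minus strand), a P-type ATPase, inclusion was lower, at 51.0, 42.9 and 50.6% in SCR, 25.9, 23.0 and 19.6% in the DHX34 knockdown and 33.5, 29.0 and 31.6% in the UPF1 knockdown. In these genes each knockdown lay apart from SCR, and for ACACA and SON the knockdowns overlapped each other.

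Other members differed from SCR mainly in the DHX34 knockdown. UPF3B, the NMD factor that binds the exon junction complex, had an exon of 39 bases (chrX:119840646-119840684, minus strand) at 34.2, 34.3 and 33.7% in SCR and 47.5, 42.3 and 56.0% in the DHX34 knockdown. In the UPF1 knockdown it was at 29.0, 32.5 and 31.6%, below every SCR library, so the knockdowns lay on opposite sides of SCR. A 72-base exon of AGFG1 (chr2:227532138-227532209, plus strand) was at 27.1, 30.3 and 27.7% in SCR, 8.6, 11.7 and 15.2% in the DHX34 knockdown and 28.2, 21.9 and 23.8% in the UPF1 knockdown, which overlapped SCR. Both exons are multiples of 3 with no stop in frame, and their sequences follow.

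UPF3B: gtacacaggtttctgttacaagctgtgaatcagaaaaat
AGFG1: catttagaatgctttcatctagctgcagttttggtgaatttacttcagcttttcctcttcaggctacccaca

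MACROH2A1 encodes a histone H2A variant with mutually exclusive exons, of which both are members. The form without either holds a transcript annotated as an NMD substrate and none annotated as protein coding. By the biotype with most TPM in each form, however, the event of the 91-base exon did not have the NMD form by skipping. The 91-base exon (chr5:135350823-135350913, minus strand) was at 55.3, 57.9 and 56.8% in SCR, 86.4, 75.7 and 71.7% in the DHX34 knockdown and 54.7, 60.4 and 63.1% in the UPF1 knockdown. The 100-base exon was at 83.8, 84.0 and 83.0% in SCR, 93.7, 89.1 and 86.7% in the DHX34 knockdown and 78.7, 80.5 and 84.2% in the UPF1 knockdown. Both share the form without either exon, which was at 19.8 ± 0.67 TPM in SCR, 10.7 ± 3.88 TPM in the DHX34 knockdown and 20.7 ± 3.19 TPM in the UPF1 knockdown (SD, n = 3). The 91-base exon is printed because it had the larger difference. It has no capitals because no coding transcript without it gave a frame, so the effect of its inclusion was not read.

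MACROH2A1: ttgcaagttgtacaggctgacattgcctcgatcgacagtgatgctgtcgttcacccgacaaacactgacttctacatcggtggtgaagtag

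ALKBH1 (chr14:77694738-77694900, minus strand), a dioxygenase that acts on methylated nucleic acids, and ATG4D (chr19:10548904-10549034, plus strand), a protease of autophagy, also have the NMD form by skipping. ALKBH1 was at 50.8, 60.6 and 62.0% in SCR, 78.9, 83.0 and 70.0% in the DHX34 knockdown and 54.7, 55.2 and 54.8% in the UPF1 knockdown. ATG4D was at 60.7, 41.9 and 27.8% in SCR, 81.5, 70.8 and 100% in the DHX34 knockdown and 37.7, 42.3 and 39.2% in the UPF1 knockdown. METTL1, a tRNA methyltransferase, was at 40.5, 52.4 and 47.5% in SCR and 57.2, 100 and 53.4% in the DHX34 knockdown, where 1 library set much of the difference of 23.4 points. In these genes the coding form had the larger share in the DHX34 knockdown, and in ALKBH1 and ATG4D the UPF1 knockdown lay inside the SCR range.

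MAP2K7, a kinase of the JNK pathway, was the one gene besides DHX34 among the cassette exons the study examined by RT-PCR that had a member. The study ran the RT-PCR of MAP2K7 in HeLa cells and that of DHX34 in K562 cells. In the K562 libraries the 48-base exon of MAP2K7 (chr19:7905808-7905855, plus strand) was at 19.9, 18.3 and 25% in SCR. It was at 30.5, 30.2 and 34.8% in the DHX34 knockdown and 31.3, 26.7 and 24.4% in the UPF1 knockdown. It lay above SCR in the DHX34 knockdown and overlapped SCR in the UPF1 knockdown.

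Members lower in the DHX34 knockdown by more than 15 points included ANAPC1, a subunit of the anaphase-promoting complex, VPS35, a subunit of retromer, WRAP73, ATP2B4, a calcium pump, MNAT1, a partner of the CDK-activating kinase, and CPSF2, a subunit of the complex that cleaves pre-mRNA 3′ ends. ANAPC1 was at 100, 99.5 and 100% in SCR and 76.0, 65.6 and 77.9% in the DHX34 knockdown. CPSF2 was at 100, 65.2 and 77.2% in SCR, 48.4, 62.5 and 55.2% in the DHX34 knockdown and 55.7, 52.9 and 57.4% in the UPF1 knockdown. ATP2B4 was at 34.3, 16.1 and 25.2% in SCR and at 0 in the 3 DHX34 knockdown libraries, on a form with the exon of 1.53 TPM in SCR. SRI, the calcium-binding protein sorcin, was higher, at 56.9, 62.1 and 41.9% in SCR, 90.6, 75.8 and 86.7% in the DHX34 knockdown and 54.8, 65.8 and 82.4% in the UPF1 knockdown. SP3, a transcription factor, was at 37, 40.4 and 33.8% in SCR and 59.0, 51.2 and 55.6% in the DHX34 knockdown.

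Values of exactly 0 or 100% were common among these. In the DHX34 list 35 of 112 members had such a value in some but not all libraries, in the UPF1 list 49 of 354, and among the 50 events of both lists 21. Such a value means that the whole level was assigned to one form in that library. An exon of HSP90AA1, a member of both lists singled out here after its values were seen, ran from 0 to 19.0% in SCR, from 0 to 87.8% in the DHX34 knockdown and from 0 to 80.7% in the UPF1 knockdown. Of the 77 members of the DHX34 list with no such value, 69 had DHX34 knockdown libraries apart from SCR, and of the 305 in the UPF1 list, 286 had UPF1 knockdown libraries apart from SCR. The shares over all events, with or without such values, were 12.2% and 20.1%, and nothing is read from the comparison because these contrasts chose the members.

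Of the 170 members of the UPF1 list with a lower PSI in the UPF1 knockdown, 102 were exons whose skipping alone gave a PTC. A 74-base exon of NVL (chr1:224326391-224326464, minus strand), an ATPase of ribosome assembly, was at 68.4, 62.8 and 67.3% in SCR, 65.2, 60.0 and 68.1% in the DHX34 knockdown and 41, 47.9 and 40.8% in the UPF1 knockdown. Its form without the exon was at 8.49 TPM in SCR, 9.31 TPM in the DHX34 knockdown and 22.7 TPM in the UPF1 knockdown, and its form with the exon at 16.6, 16.8 and 17.3 TPM. A 68-base exon of RWDD2B was at 56.2, 56.2 and 56.8% in SCR and 35.4, 34.7 and 35.7% in the UPF1 knockdown. DDX19B, a helicase of mRNA export, had a 49-base exon at 89.1, 84.6 and 84.9% in SCR and 72.7, 64.9 and 56.8% in the UPF1 knockdown. Its neighbouring 54-base exon was at 19.9, 27.6 and 23.1% in SCR and 44, 57.6 and 55.1% in the UPF1 knockdown. The transcripts counted as lacking the first DDX19B exon had the same TPM as those counted as carrying the second, 1.57 TPM in SCR and 6.11 TPM in the UPF1 knockdown, so the events are not independent.

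**Figure D5:**
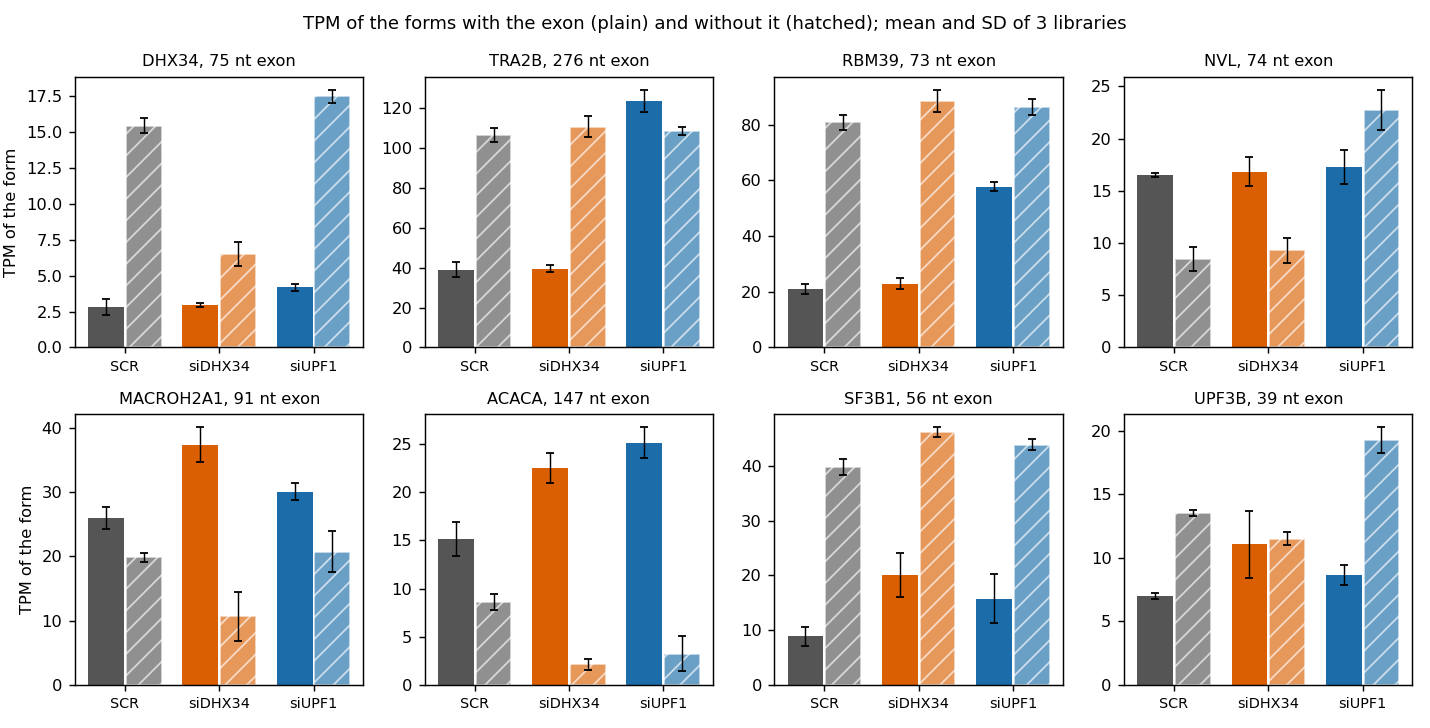
TPM (y axis) of the form with the exon (plain bars) and without it (hatched bars) in the 3 groups, siDHX34 and siUPF1 being the knockdowns, as mean and SD of 3 libraries. In TRA2B and RBM39 the form with the exon, and in NVL the form without it, is higher in the UPF1 knockdown, while the other form of TRA2B is at 106.7 TPM in SCR and 108.8 TPM in the UPF1 knockdown. In DHX34 the form without the exon is lower in the DHX34 knockdown, at 6.5 TPM against 15.4 TPM in SCR.

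Host genes were described by lists of splicing, NMD, ribosomal and leukaemia genes, as counts with no test. The 17 listed SR proteins and relatives had 40 tested events in 13 genes, of which 10, or 25%, were members, where 1.92% of all tested events were. The 10 lie in SON, SRSF2, SRSF3, SRSF6, SRSF7, TRA2A and TRA2B. All 10 are in the UPF1 list, and in all 10 PSI was higher in the UPF1 knockdown with no overlap with SCR, as in 10.8% of all events. This contrast chose the members, so nothing is read from that count. The smallest differences were 5.2 points in SRSF2, at 2.8, 2.5 and 2.8% in SCR and 7.6, 8.0 and 8.1% in the UPF1 knockdown, and 5.4 points in SRSF7, at 2.3, 2.3 and 2.2% in SCR and 7.8, 6.9 and 8.2% in the UPF1 knockdown. SRSF3, at 15.2, 13.2 and 12.8% in SCR, was at 22.2, 23.1 and 23.5% in the UPF1 knockdown. In SRSF2, SRSF3 and SRSF7 the DHX34 knockdown stayed between 1.7 and 15.8%, and its difference from SCR was 1.3 points or less. These 3 genes were singled out after their values were seen. So was a second exon of TRA2B, of 134 bases, whose skipping gave a PTC and whose form without it was at 23.9 ± 3.8 TPM in SCR and 13.9 ± 2.74 TPM in the UPF1 knockdown (SD, n = 3). Only the SON events of this group are also in the DHX34 list, and an 80-base NMD exon of SON was at 3.9, 9.3 and 8.3% in SCR, 16.3, 18.1 and 17.2% in the DHX34 knockdown and 17.6, 19.1 and 16.1% in the UPF1 knockdown.

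The other host gene lists held fewer members. The core spliceosome had 4 of 106 tested events, in LUC7L, SF3B1 and U2AF1, and all 4 were higher in the UPF1 knockdown with no overlap, in the contrast that chose them. LUC7L, a U1 snRNP-associated protein, had a 70-base exon at 13.8, 6.9 and 9.4% in SCR, 8.7, 9.2 and 16.2% in the DHX34 knockdown and 30.3, 32.0 and 33.2% in the UPF1 knockdown. The hnRNPs had 3 of 80. An exon of 139 bases in HNRNPH1 was at 91.4, 89.5 and 88.2% in SCR and 82.6, 82.9 and 79.1% in the UPF1 knockdown, and one of 139 bases in HNRNPH3 at 88.9, 87.7 and 89.1% and 74.0, 73.4 and 76.2%. In HNRNPDL the exon lies in the 3′ untranslated region and was at 3.5, 4.1 and 3.5% in SCR and 9.7, 9.9 and 9.9% in the UPF1 knockdown. Other RNA-binding regulators had 4 of 153, in CLK2, RBM3 and RBM39. CLK2, a kinase of SR proteins, had an 85-base exon at 89.9, 79.1 and 86.6% in SCR, 74.3, 75.9 and 76.0% in the DHX34 knockdown and 60.4, 64.0 and 62.2% in the UPF1 knockdown.

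NMD factors had 2 of 26 tested events, the exons of DHX34 and UPF3B, both in the DHX34 list. Ribosomal proteins had 3 of 115, with RPL27A at 24.4, 24.4 and 30.0% in SCR, 22.5, 17.8 and 15.2% in the DHX34 knockdown and 38.5, 35.4 and 45.4% in the UPF1 knockdown. A list of genes named in myeloid leukaemia and myelodysplasia, by the study or the field, had 7 of 89, in ELK1, NPM1, RBM39, SF3B1, SRSF2 and U2AF1, of which 3 are in the DHX34 list and 6 in the UPF1 list. The lists were drawn up with earlier results of these data known, so their counts are not independent evidence.

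The transcript set mattered to all of this. Of the transcripts matched to the annotation used here, 85.8% had the same length in the authors' tables. With only these counted, 50 of 100 members of the DHX34 list and 183 of 332 of the UPF1 list had groups that did not overlap. The median difference of the members with the NMD form by inclusion was then 7.24 points over 75 members of the UPF1 list and 3.06 points over 8 members of the DHX34 list.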

How the data were processed

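RNA was measured in 9 libraries of K562 cells, 3 for each siRNA. The authors quantified reads with salmon against Ensembl transcripts on GRCh38, and their deposited tables give the TPM and the expected count of each of 203027 transcripts. TPM keep no depth, so the expected counts served only as a measure of it. The authors' splicing tables, made with SUPPA2, gave the identity and type of the listed events. Their columns of PSI differences, p-values and TPM, and the tables of gene expression results, were not used.

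Events were rebuilt from GENCODE release 44, which is later than the authors' annotation. Of the transcripts, 97.9% matched by identifier, with 97.2 to 97.4% of the TPM. PSI was the TPM with the exon over the TPM of both forms, and changes of a form are differences of mean log2(TPM + 0.5), which understates the change of low forms. Events with a mean of at least 1 TPM were fitted with limma 3.58.1 in R 4.3.3 on log2 of the ratio of both forms with 0.5 TPM added, over all 9 libraries, with Benjamini-Hochberg adjustment at 0.05. The fit was tested on simulated data. SUPPA2 itself was not run. P-values measure the spread between these libraries.

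The members, the gene lists and the naming rule were chosen with earlier results of these data known. Named members had at least 5 TPM and knockdown libraries apart from SCR, and were the 10 with the largest rise and fall in each list, 1 event a gene. To these were added up to 3 a gene list, up to 10 exons with an in-frame stop, the genes of the study's RT-PCR and members of opposite sign. Genes on chromosome 8 were not named, and 1 further member is not reported here. Other settings tried were the pseudocount, the filter, PSI in percent, 6 libraries, the replicate block, transcripts of the same length, the outcome by the biotype with most TPM, and leaving out each library.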

Additional observations from a re-analysis of the deposited data

How the results depend on the processing

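The limma call counts moved widely with the settings. For the DHX34 knockdown against SCR (49 events) they were 7 with a pseudocount of 0.1 TPM, 852 with 2 TPM, 120 with no filter on low values, 20 on PSI in percent, 11 on 6 libraries, 6 with transcripts of the same length and between 0 and 15 with 1 library left out. For the UPF1 knockdown against SCR (1201) they were 500, 3339, 753 on PSI in percent, 775 on 6 libraries, and between 492 and 1054 with 1 library left out. Between the knockdowns (971) they were 403, 2028, 626 on PSI in percent, 596 on 6 libraries, and between 455 and 820. With a replicate block the counts were 0 (2910 events at an unadjusted p under 0.05), 687 and 523. Libraries of the same number did not deviate together, with correlations from -0.009 to 0.016, so the numbers were not taken as pairs. The cause of these shifts was not tested.

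With transcripts of the same length the members whose groups did not overlap were 50 in the DHX34 list (92 with all transcripts) and 183 in the UPF1 list (317), and the median difference of those with the NMD form by inclusion was 3.06 (10.05) and 7.24 points (12.54). With 1 library left out these 4 values ran from 94 to 98, from 323 to 329, from 8.4 to 11.1 and from 11.55 to 12.96. At a mean of at least 5 TPM the counts were 85 of 100 and 303 of 334 members and the medians 10.05 and 12.49 points. With the outcome set by the biotype with most TPM, the medians were 10.05 and 12.72 points.

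TPM come from reads shared among isoforms, so a shift between forms can reflect the assignment. Exons of a few bases, forms near 0 TPM and near-identical copies of a gene are further limits, whose part was not tested.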
